A study of Homo sapiens with 6 samples.

Results

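The transcripts described here are those of 10 SOX transcription factors in SW480, a human colon cancer cell line with truncated APC. They are SOX2, SOX4, SOX5, SOX6, SOX7, SOX8, SOX9, SOX12, SOX13 and SOX18, each found in the deposited table by its gene symbol, and they are 10 of 22258 symbols in that table. Total RNA was sequenced with strand-specific libraries from 3 samples labelled as ALDH1B1 knockdown and 3 control samples labelled wild type and carrying the prefix SCR, all with treatment given as none and with replicate numbers 4, 5 and 6. ALDH1B1 is a mitochondrial aldehyde dehydrogenase. The labels do not say how the knockdown was made, whether the cells are 1 clone or whether replicates were grown separately, so the p-values reflect spread among 6 samples that could be technical.

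SOX factors bind DNA through an HMG box, a domain related to that of SRY, which fits into the minor groove and bends the helix. They usually act together with partner factors, and the family is divided into groups by the similarity of that box. SOX2 (group B) keeps embryonic stem cells pluripotent and specifies the foregut, while the adult colon epithelium normally has little of it. SOX9 (group E) is made in the lower intestinal crypt downstream of Wnt signalling, and SOX4 (group C) is often raised in carcinomas. SOX5, SOX6 and SOX13 (group D) lack a transactivation domain of their own, and SOX7 and SOX18 (group F) are best known from blood vessels.

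SOX2, SOX4 and SOX9 fell in the knockdown samples, SOX9 only slightly and with a call that depended on the processing, and 0 of the set rose. Values are in RPM (reads scaled to sequencing depth), the deposited log2 values with the log undone. RPM is not corrected for transcript length, so levels are compared between samples and not between genes. Of the 10 transcripts, 7 reached the mean of 0.688 RPM required for testing, and SOX5, SOX6 and SOX7 lay under it. SOX8 reached it only through its knockdown samples. Of these 7, 3 fell and 0 rose at an adjusted p under 0.05 (limma). Among all 15496 genes tested, 41.8% changed in either direction, 19.2% fell and 22.6% rose, so a count of 3 among 7 is read against a background in which changes were common. The median log2 fold change was -0.08 for the 7 SOX genes, from -0.20 to -0.01 over the 16 alternatives, and 0.00 for all genes. The groups did not overlap for 2 of the 7, SOX2 and SOX4, both lower in the knockdown, against 51% of all tested genes, 24.6% with the knockdown lower and 26.5% with it higher. Of all tested genes, 1.21% fell by 1 log2 unit or more, SOX2 and SOX4 among them. In RNA from whole cultures, fewer cells with a transcript and less of it per cell cannot be told apart.

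ALDH1B1 itself averaged 36.8 ± 2.76 RPM in control and 21.2 ± 1.74 RPM in knockdown samples (SD, n = 3 each), or 57.6% of control. Sequencing depth, read from the step between low values, was about 20340000 to 28560000 reads per sample. The groups were separated on principal component 1 (68.5% of the variance), and control replicate 6 stood away from the other controls on component 2 (11.5%). The keratins KRT8, KRT18 and KRT19 were present in both groups, with means from 786 to 2743 RPM, whereas KRT20, LGALS4 and GPA33, markers of differentiated colon epithelium, had means of at most 0.182 RPM. Of the 8 colon epithelial markers tested, 3 rose and 1 fell. The brush border protein VIL1 rose by 1.90 on the log2 scale, the adhesion molecule EPCAM by 0.90 and the nuclear receptor HNF4A by 0.69, and CDX2 had a log2 fold change of -0.76. The 3 of 10 fibroblast markers in the table summed to 4.18 to 5.74 RPM in the control and 5.37 to 7.03 in the knockdown, the 5 of 10 leukocyte markers to 2.31 to 3.53 and 1.96 to 2.66, and the 2 of 8 endothelial markers to 0.617 to 0.765 and 0.497 to 0.786. The 6 of 10 neural and glial markers summed to 16.6 to 22.3 RPM in the control and 18.6 to 20.3 in the knockdown, most of it from MBP. Single markers changed within these sums, since the synaptic vesicle protein SYP rose from 2.004 ± 0.267 to 4.81 ± 0.224 RPM and the macrophage marker CD68 fell from 1.17 ± 0.320 to 0.311 ± 0.106 RPM (SD, n = 3 each), tested only through its control samples. None of the markers in the table was at 0 in all samples, which held for every list and says nothing of the markers missing from the table. The part of these markers in the SOX results was not tested.

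**Figure D1:**
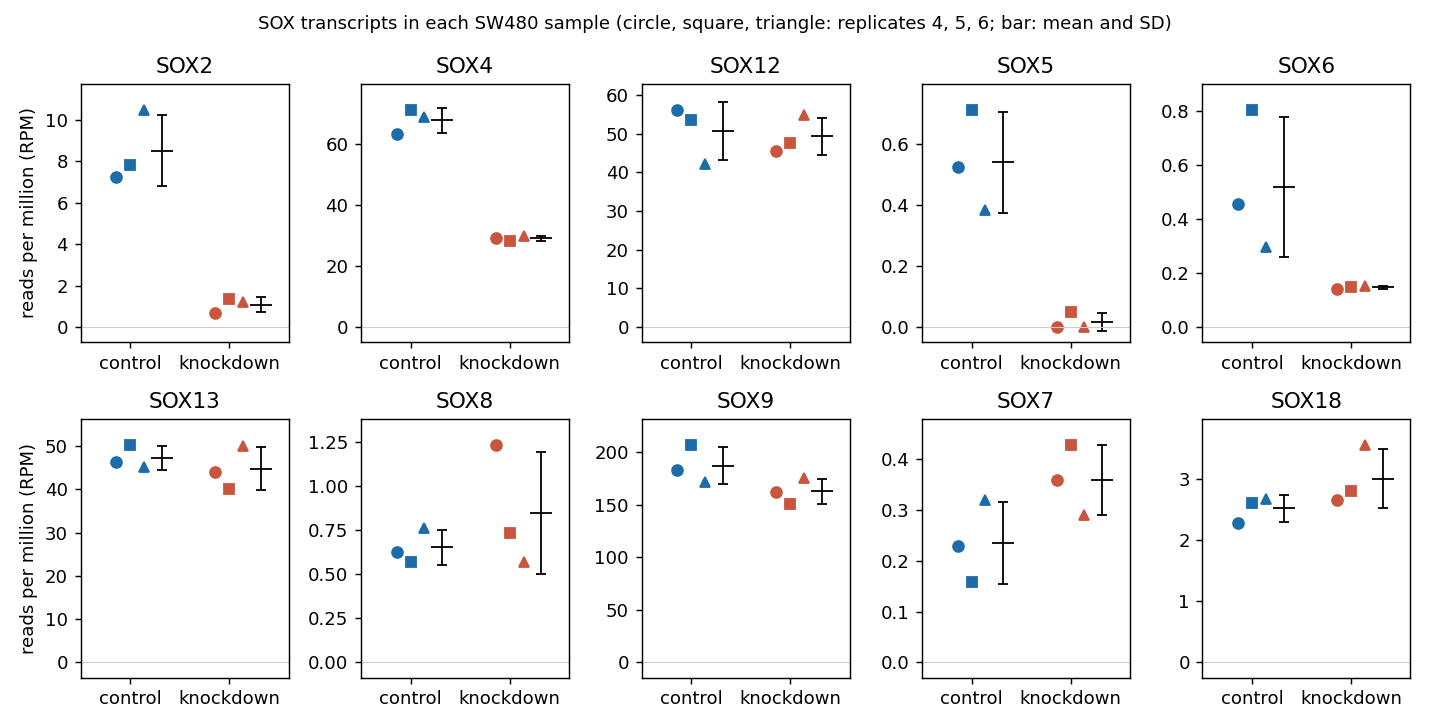
Each panel shows one SOX transcript in RPM (linear axis) in the 3 control samples (blue) and the 3 knockdown samples (red), with circles, squares and triangles for replicates 4, 5 and 6 and a bar for the mean and SD. The groups are separate for SOX2, SOX4, SOX5 and SOX6 and overlap for the other 6, and SOX5 is at 0 in 2 knockdown samples.

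SOX2 showed the largest tested change of the set. It measured 7.24, 7.82 and 10.5 RPM in control replicates 4, 5 and 6, against 0.665, 1.38 and 1.22 RPM in the knockdown replicates of the same numbers. Every control sample was above every knockdown sample, and the lowest value belonged to knockdown replicate 4. The means were 8.52 ± 1.73 RPM for control and 1.09 ± 0.374 RPM for knockdown samples (SD, n = 3 each), so 12.8% of the control level remained. The log2 fold change was -3.02 (SE 0.227, 95% interval -3.49 to -2.55, limma adjusted p = 1.51e-10). By exact permutation of the group labels, two-sided, p was 0.1, which is the lowest value possible with 3 samples a group. In reads this is about 207, 165 and 247 in the control samples and about 14, 28 and 32 in the knockdown samples, so the residual signal rests on few reads but lies above the level of 3 reads (0.105 to 0.147 RPM). Among all 15496 genes SOX2 had the log2 fold change of rank 16 from the lowest. Of the genes tested, 0.103% fell by 3 log2 units or more. Without any 1 of the 6 samples the log2 fold change of SOX2 stayed between -3.22 and -2.70.

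SOX2 is a gene with a single exon (chromosome 3, 181429714 to 181432222, plus strand, by the positions in the deposited table, for which no build is stated). It lies within the long non-coding gene SOX2-OT on the same strand, a transcript not analysed here. Its promoter is printed because it carries the transcript that fell most, and that of SOX4 because SOX4 also fell. SOX12, from the same group as SOX4, is shown as a gene that did not pass the test, and SOX5 as the gene with values nearest to 0. Each line gives the 250 bases before the RefSeq start (GRCh38.p14), read 5′ to 3′ on the gene's strand. The positions are chr3:181711675-181711924 (plus strand) for SOX2, chr6:21593501-21593750 (plus strand) for SOX4, chr20:325302-325551 (plus strand) for SOX12 and chr12:24562492-24562741 (minus strand) for SOX5. The SOX5 stretch lies outside the deposited span of SOX5, which ends at 24103967, though the builds differ. It may belong to a longer SOX5 transcript than the one measured, which was not tested. Capitals mark matches, on either strand, to a SOX motif (ACAANG), a TCF/LEF motif (CTTTGA), a GC box (GGGCGG) and an E2 box bound by Snail and ZEB factors (CACCTG).
SOX2: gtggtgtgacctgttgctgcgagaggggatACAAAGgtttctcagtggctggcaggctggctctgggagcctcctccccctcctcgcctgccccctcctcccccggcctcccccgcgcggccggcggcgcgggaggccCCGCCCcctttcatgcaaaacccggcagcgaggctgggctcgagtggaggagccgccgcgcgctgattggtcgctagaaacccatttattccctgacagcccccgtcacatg
SOX4: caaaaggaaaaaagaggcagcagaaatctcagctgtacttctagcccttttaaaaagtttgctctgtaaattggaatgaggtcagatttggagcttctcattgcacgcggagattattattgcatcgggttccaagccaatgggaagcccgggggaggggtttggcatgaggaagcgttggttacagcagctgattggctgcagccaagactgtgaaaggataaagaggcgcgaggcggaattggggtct
SOX12: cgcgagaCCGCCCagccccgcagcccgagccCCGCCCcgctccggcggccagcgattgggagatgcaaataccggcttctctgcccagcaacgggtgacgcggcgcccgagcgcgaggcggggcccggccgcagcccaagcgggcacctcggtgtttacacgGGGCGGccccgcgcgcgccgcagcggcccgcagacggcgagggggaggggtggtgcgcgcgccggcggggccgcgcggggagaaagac
SOX5: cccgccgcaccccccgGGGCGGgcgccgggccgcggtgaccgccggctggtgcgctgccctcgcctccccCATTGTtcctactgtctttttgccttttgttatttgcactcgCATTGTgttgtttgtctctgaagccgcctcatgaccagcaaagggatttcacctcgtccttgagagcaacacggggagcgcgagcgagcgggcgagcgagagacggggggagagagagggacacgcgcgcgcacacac

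The SOX2 stretch held 1 SOX motif and 1 GC box, and 68.8% of its bases were G or C. The SOX4 stretch held none of the 4 motifs and was 48.8% G or C, against a median of 58% over all promoters. SOX12 had 3 GC boxes and no SOX motif, with 79.2% G or C, and SOX5 had 2 SOX motifs and 1 GC box. Over 35116 promoters of the same length, 30.9% held the SOX motif, 11.2% the TCF/LEF motif, 42.6% the GC box and 17.5% the E2 box. The SOX motif with A at its open position reads CTTTGT on the other strand and so shares its first 5 letters with the TCF/LEF motif. These matches describe the letters only. Promoters of 6 of the 10 SOX genes were examined, and entries on chromosome 8, where SOX7 lies, were left out.

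The group C pair split, since SOX4 fell and SOX12 did not pass the test. SOX4, a transactivator of progenitor cells that is induced by TGF-beta (chromosome 6, 21593972 to 21598848), had 63.4, 71.3 and 68.9 RPM in control replicates 4, 5 and 6 and 29.2, 28.2 and 29.9 RPM in knockdown replicates 4, 5 and 6. The groups were far apart and the knockdown samples lay close together. Means were 67.8 ± 4.07 and 29.1 ± 0.848 RPM (SD, n = 3 each), which is 42.9% of control. The log2 fold change was -1.22 (SE 0.0816, 95% interval -1.39 to -1.05, limma adjusted p = 1.83e-11), supported by about 574 to 1809 reads per sample. SOX4 ranked 40 of 15496 genes by p, ahead of SOX2 at 72, and its replicates varied less in proportion to their mean.

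SOX12, a weaker transactivator with overlapping roles (chromosome 20, 306207 to 310866), had 56.1, 53.4 and 42.1 RPM in control replicates 4, 5 and 6. It had 45.6, 47.5 and 54.7 RPM in knockdown replicates 4, 5 and 6. The groups overlapped over nearly their whole range. The log2 fold change was -0.03 (95% interval -0.23 to 0.17, limma adjusted p = 0.821), and its sign turned under quantile normalization and without 3 of the samples in turn. An antisense gene, RP5-1103G7.4, covers the locus with 1.89 ± 0.142 RPM in control and 1.66 ± 0.367 RPM in knockdown samples (SD, n = 3 each). Whether strand was used in counting is not stated by the labels.

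**Figure D2:**
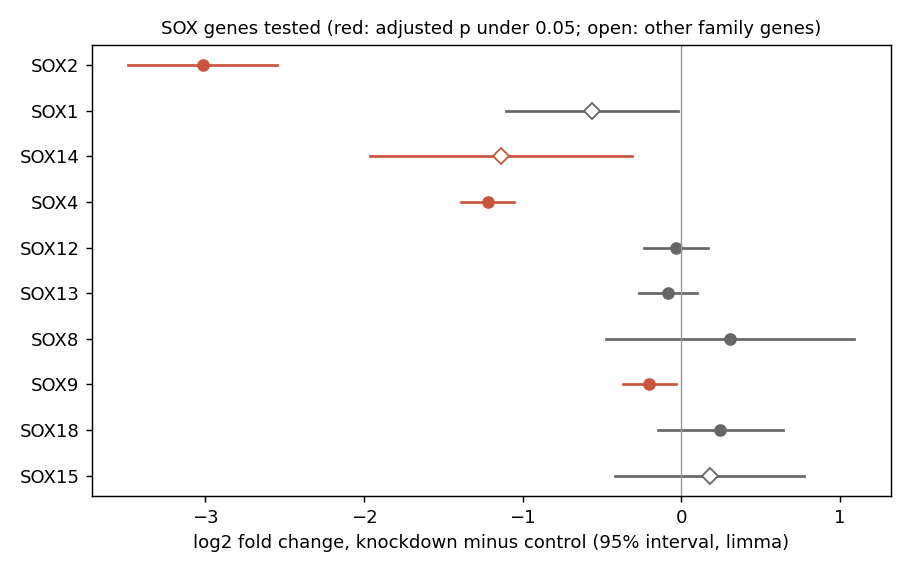
Log2 fold change of knockdown against control (horizontal axis) with its 95% interval for the 7 tested SOX genes (filled) and 3 other tested family genes (open), with those at an adjusted p under 0.05 in red. SOX2 at -3.02 and SOX4 at -1.22 lie far from 0, SOX9 at -0.20 lies close to it, and the intervals of SOX12, SOX13, SOX8, SOX18 and SOX15 include 0.

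Ratios between 2 SOX transcripts within a sample do not depend on how samples were scaled to each other. The log2 ratio of SOX4 to SOX12 was 0.17, 0.42 and 0.71 in control replicates 4, 5 and 6 and -0.64, -0.75 and -0.87 in knockdown replicates 4, 5 and 6. It thus changed by -1.19 on average, with no overlap. Its sign is not read, since RPM is not corrected for transcript length. The log2 ratio of SOX4 to SOX9 changed from -1.46 ± 0.124 to -2.48 ± 0.0664, and that of SOX2 to SOX9 from -4.47 ± 0.381 to -7.29 ± 0.588 (SD, n = 3 each). SOX12 to SOX13 served as a pair of transcripts that had not passed the test, and its log2 ratio was 0.09 ± 0.186 in the control and 0.14 ± 0.0976 in the knockdown, with overlapping groups. The exact permutation p (two-sided) was 0.1, the smallest possible, for each of the 3 ratios with SOX2 or SOX4 named here, and p = 0.7 for SOX12 to SOX13. These ratios were chosen after the values of the genes were known, from 5 computed, and no adjustment can bring a p of this design under 0.1. They restate the differences of the single genes, so neither the shifts nor the overlap of SOX12 to SOX13 is separate support.

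**Figure D3:**
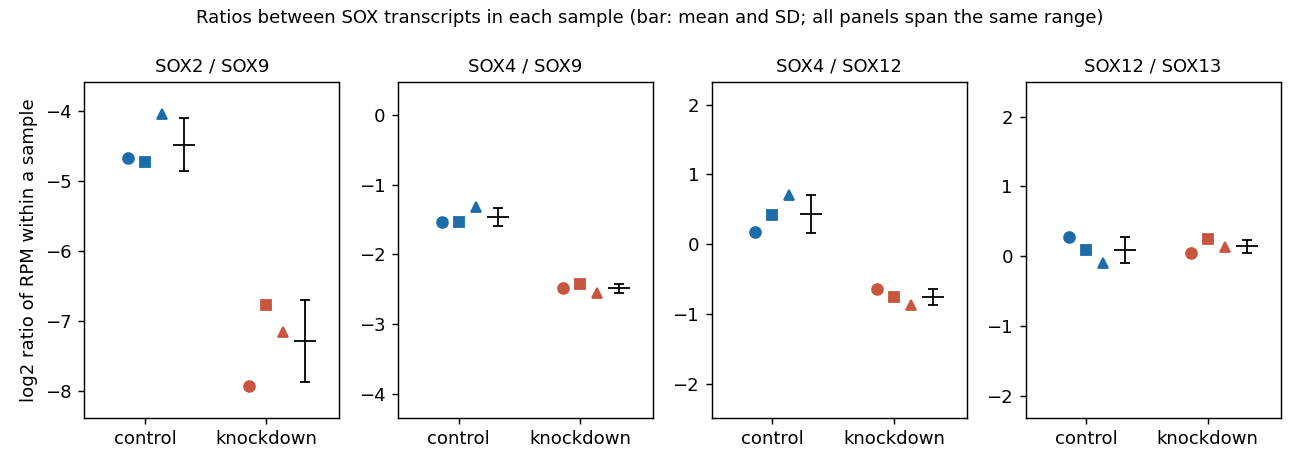
Log2 ratio of RPM between 2 SOX transcripts within each sample, by group, with the mean and SD as a bar and the same axis span in each panel. The ratios of SOX2 and SOX4 to SOX9, and of SOX4 to SOX12, are lower in all 3 knockdown samples (red) than in all 3 control samples (blue), whereas SOX12 to SOX13 overlaps.

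In group E the call for SOX9 was narrow, SOX8 did not pass the test and SOX10 was too scarce to be tested. SOX9, the crypt factor of this group (chromosome 17, 70117161 to 70122562), had 183.3, 206.8 and 172.02 RPM in control replicates 4, 5 and 6. In knockdown replicates 4, 5 and 6 it had 162.3, 150.9 and 175.3 RPM. Knockdown replicate 6 was above control replicate 6, so the groups overlapped. The mean was 187 ± 17.8 RPM for control and 162.8 ± 12.2 RPM for knockdown samples (SD, n = 3 each), or 86.9%, with a log2 fold change of -0.20 (SE 0.0808, limma adjusted p = 0.0478). That call was lost under 8 of 16 alternatives, among them the fits without control replicate 4 or 5 or knockdown replicate 4 or 5 (adjusted p = 0.0751, 0.274, 0.09996 and 0.240). Without control replicate 5 its log2 fold change was -0.13, and with quantile normalization -0.12. The antisense gene SOX9-AS1, which spans SOX9 on the other strand, was under the level for testing, with 0.490, 0.474 and 0.382 RPM in control replicates 4, 5 and 6 and 0.760, 0.639 and 0.573 RPM in knockdown replicates 4, 5 and 6. SOX8, a relative of SOX9 active in glia and testis (chromosome 16, 1031808 to 1036980), had 0.630, 0.569 and 0.765 RPM in the control samples and 1.23, 0.737 and 0.573 in the knockdown samples in the same replicate order. Its highest and its second lowest value were both in the knockdown group. The log2 fold change of SOX8 was 0.31, with a 95% interval from -0.47 to 1.09 (limma adjusted p = 0.537). Its control mean, 0.654 RPM, was under the level for testing, so it was tested only through its knockdown samples (mean 0.848 RPM).

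In group D, SOX5 and SOX6 were scarce and lower in every knockdown sample, and SOX13 did not pass the test. SOX5, which acts with SOX6 and SOX9 in cartilage (chromosome 12, 23682440 to 24103967), had 0.525, 0.711 and 0.382 RPM in control replicates 4, 5 and 6. It was at 0 in knockdown replicates 4 and 6 and at 0.0491 RPM in knockdown replicate 5. That is 39 reads in the 3 control samples together and 1 read in the 3 knockdown samples together, a level of 2.78% of control with an exact 95% interval of 0.0686% to 16.4%. SOX6, its close relative (chromosome 11, 15987995 to 16761139), had 0.455, 0.806 and 0.297 RPM in control replicates 4, 5 and 6 and 0.142, 0.147 and 0.153 in knockdown replicates 4, 5 and 6. Pooled over samples there were 37 control reads and 10 knockdown reads, or 29.3% of control with an interval of 12.99% to 60.1%. The intervals are Clopper-Pearson intervals that cover counting error only. All 6 values of SOX5 and of SOX6 lay within 0.05 of a whole number of reads. Neither gene reached the level for testing, and p was 0.1 for each by exact two-sided permutation, again the smallest possible. With no filter on low values both passed (limma adjusted p = 0.0320 and 0.0384), and with an offset of 0.1 RPM as well their log2 fold changes were -2.45 and -1.24 (adjusted p = 3.92e-05 and 0.0153), a setting added after the data were seen. SOX6 overlaps C11orf58 on the other strand, which averaged 152 ± 7.75 RPM in control and 130.9 ± 4.79 RPM in knockdown samples (SD, n = 3 each).

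SOX13, the third gene of this group (chromosome 1, 204042243 to 204096864), had 46.4, 50.2 and 45.03 RPM in control replicates 4, 5 and 6 and 44.1, 40.1 and 49.9 in knockdown replicates 4, 5 and 6. The log2 fold change was -0.08 (95% interval -0.26 to 0.10, limma adjusted p = 0.470). A change of the size seen for SOX4 therefore lay outside the intervals of both SOX12 and SOX13.

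Of group F, SOX18 did not pass the test and SOX7 was too scarce to be tested. SOX18, which acts in lymphatic and vascular endothelium (chromosome 20, 62679076 to 62680995), had 2.27, 2.61 and 2.68 RPM in control replicates 4, 5 and 6 and 2.66, 2.80 and 3.55 in knockdown replicates 4, 5 and 6. Its groups overlapped slightly and its log2 fold change was 0.25 (95% interval -0.15 to 0.64, limma adjusted p = 0.314). Of its span, 1039 bases are shared on the same strand with ZNF512B, which rose by 0.77 on the log2 scale, from 10.6 ± 1.49 to 17.96 ± 2.11 RPM (SD, n = 3 each), and the part of shared reads in the SOX18 values was not tested. SOX7, on chromosome 8, had 0.229, 0.158 and 0.320 RPM in control replicates 4, 5 and 6 and 0.360, 0.428 and 0.290 in knockdown replicates 4, 5 and 6. These are about 3 to 9 reads per sample, and none of the 6 values lay within 0.05 of a whole read. The table's SOX7 span shares 74886 bases on the same strand with PINX1, so its reads may be divided between the genes and its direction is uncertain.

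Other family members in the table were scarce. SOX14, a group B factor of the nervous system (chromosome 3, 137483579 to 137484397), fell from 1.10 ± 0.198 to 0.552 ± 0.314 RPM (SD, n = 3 each), or -1.14 on the log2 scale (SE 0.401, limma adjusted p = 0.0250) on about 6 to 38 reads per sample. Its knockdown mean was under the level for testing, so it was tested only through its control samples. The call was lost without control replicate 4 or knockdown replicate 5 (adjusted p = 0.0963 and 0.146), and with an offset of 1 RPM the log2 fold change was -0.45. SOX1, a group B relative of SOX2, had 2.48, 2.99 and 1.49 RPM in control replicates 4, 5 and 6 and 1.80, 1.13 and 1.68 in knockdown replicates 4, 5 and 6. Its log2 fold change of -0.56 missed the threshold (adjusted p = 0.0891) and passed it, at -0.85, without control replicate 6 (adjusted p = 0.00737). SOX15 did not pass the test (log2 fold change 0.18, adjusted p = 0.648), and its sign turned under quantile normalization and without knockdown replicate 5. SOX10 and SOX30 were under the level for testing, with control means of 0.341 and 0.452 RPM and knockdown means of 0.177 and 0.253 RPM.

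SOX2 and SOX4 each had a lower log2 fold change than every one of their tested neighbours. For each SOX gene the 10 nearest tested genes on either side were examined, as far as the chromosome holds them. These spanned 4.29 Mb around SOX2 and 6.91 Mb around SOX4, but 0.785 Mb around SOX8 and 0.534 Mb around SOX18. The neighbours are therefore not equally near for each SOX gene. Near SOX2, 9 of 20 fell and 2 rose, with a median log2 fold change of -0.23 and a lowest value of -0.60, that of MRPL47. The next tested gene on one side, DNAJC19, was at -0.11 (adjusted p = 0.433), and FXR1, the one after it, fell by 0.35. SOX2 thus lay in a stretch where more genes fell than the 19.2% of all tested genes, and itself lay far below the lowest of them. Near SOX4, 6 of 20 fell and 4 rose, with a median of -0.12 and a lowest value of -0.74, that of NHLRC1, which did not pass the test. Near SOX9, 2 fell and 4 rose (median 0.13). SOX8 lay among genes that were higher, with 8 of 20 that rose and 0 that fell (median 0.32, or 0.20 with quantile normalization). For the other genes the medians ran from -0.20 near SOX7 to 0.18 near SOX18. Nothing in these counts was tested.

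**Figure D4:**
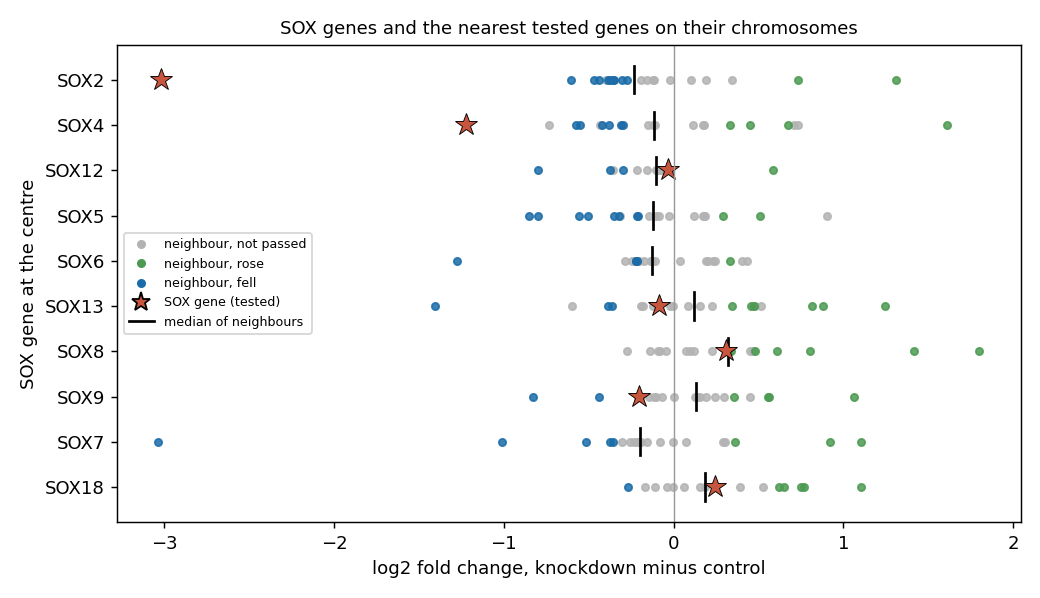
Each row shows the log2 fold changes (horizontal axis) of up to 20 tested genes nearest to one SOX gene, green for those that rose, blue for those that fell and grey for those that did not pass, with their median as a bar and the SOX gene, where tested, as a red star. The stars of SOX2 and SOX4 lie below all of their neighbours, and the others lie among theirs.

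The tested genes whose values followed SOX2 most closely over the 6 samples were also identified. Likeness was measured as the root mean square distance between centred log2 values, over 12046 genes averaging 3.44 RPM or more. CTHRC1, a secreted collagen triple helix protein, was nearest at 0.333 log2 units, followed by the co-repressor TLE1 at 0.420, the orphan nuclear receptor NR2F1 at 0.427, the potassium channel KCNMA1 at 0.504 and the guidance factor SEMA3A at 0.516. Each was lower in all knockdown samples, as the measure requires of a profile like that of SOX2. SOX2 and all of these genes but NR2F1 reached 3.44 RPM only through their control samples. CTHRC1 had 10.2, 10.3 and 9.39 RPM in control replicates 4, 5 and 6 and 0.617, 1.18 and 0.917 in knockdown replicates 4, 5 and 6, so its lowest value, like that of SOX2, was in knockdown replicate 4. With 6 samples in 2 groups, this likeness mostly reflects the shared size of the difference between groups.

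Genes linked to SOX2 by function went both ways. Of 18 pluripotency partners listed, 9 were in the table and 5 were tested. Of these 5, 3 fell and 1 rose, with a median log2 fold change of -0.47. The rise was that of TDGF1, from 0.954 ± 0.220 to 2.26 ± 0.438 RPM (SD, n = 3 each; log2 fold change 1.26, limma adjusted p = 0.00052). TDGF1 kept its call in all 15 alternatives that tested it. POU5F1 was under the level for testing, with means of 0.495 RPM in control and 0.530 RPM in knockdown samples. KLF4, a reprogramming factor and gut differentiation gene, fell from 28.3 ± 1.71 to 14.9 ± 0.311 RPM (SD, n = 3 each; log2 fold change -0.92), and MYC fell by 0.47. The third fall, that of SALL4 (-0.63, adjusted p = 0.0409), had overlapping groups and was lost in 6 alternatives, among them those without control replicate 4 or 5 or knockdown replicate 4 or 6 (adjusted p up to 0.214). Of 11 tested POU and PAX factors, the families that pair with SOX proteins on DNA, 4 rose and 2 fell (median 0.04, from -0.01 to 0.36 over the alternatives, highest without control replicate 5), and PAX8 rose from 10.3 ± 1.10 to 20.7 ± 0.234 RPM (SD, n = 3 each). The fall of PAX9 (-0.62, adjusted p = 0.0406) was lost in 6 alternatives, among them those without control replicate 4 or 5 or knockdown replicate 5 or 6 (adjusted p up to 0.150). POU3F2, which also fell (-1.11), was tested only through its control samples, with means of 0.977 RPM in control and 0.446 RPM in knockdown samples. Among neural progenitor genes linked to SOX2, 2 of 8 rose and 3 fell (median 0.07). The Hedgehog effector GLI2 rose by 1.36, the filament nestin, NES, rose by 0.39, and the Polycomb protein BMI1 and the tubulin TUBB3 had log2 fold changes of -0.41 and -0.39. Foregut and squamous genes also divided, with 3 of 6 that rose and 2 that fell (median 0.03, from -0.12 to 0.28 over the alternatives). The squamous keratin KRT13 rose from 57.6 ± 2.20 to 186 ± 5.44 RPM (SD, n = 3 each; log2 fold change 1.69), and KRT15 rose by 0.98, while the morphogen BMP4 had a log2 fold change of -0.79. The rise of the keratin KRT5 (0.28, adjusted p = 0.0142) was lost with the replicate block and without control replicate 6 or knockdown replicate 6 (adjusted p up to 0.0753), and the fall of FOXA2, a foregut factor, without control replicate 5 (adjusted p = 0.0568).

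Lists of partners and targets of the other SOX factors also went both ways. Of 16 tested beta-catenin, TCF and co-repressor genes, 3 rose and 6 fell (median -0.05, from -0.12 to 0.00 over the alternatives). TLE1 had 14.4, 16.7 and 16.9 RPM in control replicates 4, 5 and 6 and 2.47, 2.16 and 2.14 in knockdown replicates 4, 5 and 6, and LEF1 and TLE4 had log2 fold changes of -0.74 and -0.83, whereas the repressor TCF7L1 rose by 0.80. Intestinal crypt and Wnt genes had 5 of 13 that rose and 2 that fell (median 0.13, or -0.01 without knockdown replicate 6). The rises include MUC2 (1.20), tested only through its knockdown samples, with means of 0.446 RPM in control and 1.03 RPM in knockdown samples. The intestinal factor CDX2 had a log2 fold change of -0.76, while the guidance receptor EPHB3 and the Wnt feedback ligase RNF43 rose by 1.05 and 0.47. Of 8 tested cartilage genes linked to SOX9, SOX5 and SOX6, 3 rose and 0 fell (median 0.52, from 0.27 to 0.59 over the alternatives). COL9A3, a collagen IX chain, rose from 171 ± 21.1 to 248 ± 3.77 RPM (SD, n = 3 each), COL27A1 rose by 0.64 (0.42 with quantile normalization), and MATN3, a matrix protein under 2 RPM in both groups, rose by 1.71, or 0.77 with an offset of 1 RPM. The control mean of MATN3, 0.465 RPM, was under the level for testing, so it was tested only through its knockdown samples. The same held for COL9A2, with means of 0.605 RPM in control and 0.832 RPM in knockdown samples. Its log2 fold change of 0.50 did not pass the test but lay next to the list median, which therefore depends in part on the filter. COL2A1, the collagen II gene by which this trio is best known, did not pass the test, with means of 0.993 RPM in control and 0.869 RPM in knockdown samples.

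Neural crest and glial genes linked to SOX8, SOX9 and SOX10 had 5 of 9 that rose and 2 that fell (median 0.57). The falls include SNAI2, which was tested only through its control samples and counts again in the SOX4 list below. The neurotrophin receptor NGFR rose from 121 ± 4.36 to 246 ± 11.99 RPM (SD, n = 3 each), the adhesion molecule L1CAM rose by 0.97 and the connexin GJB1 by 0.57, while the myelin protein PMP22 had a log2 fold change of -0.67. Of 15 tested TGF-beta and mesenchymal transition genes linked to SOX4, 7 fell and 3 rose (median -0.17). TGFB2, a ligand of the pathway that induces SOX4, fell from 6.45 ± 1.18 to 0.935 ± 0.175 RPM (SD, n = 3 each). The matrix protein fibronectin, FN1, had a log2 fold change of -1.34, and the repressor SNAI2 one of -2.93, or -1.42 with an offset of 1 RPM, and was tested only through its control samples. In the other direction E-cadherin, CDH1, rose from 13.1 ± 2.92 to 51 ± 4.97 RPM (SD, n = 3 each), or by 1.98. Endothelial genes linked to group F gave 1 of 5 that fell and 0 that rose. The fall was that of the ephrin EFNB2 (-0.45, adjusted p = 0.0297), whose groups overlapped and whose call was lost in 6 alternatives, among them those without control replicate 4 or 5 or knockdown replicate 4 or 5 (adjusted p up to 0.197). Of 22 tested enzymes and transport factors reported to modify or carry SOX proteins, 11 fell and 0 rose, with a median log2 fold change of -0.17. The methyltransferases SETD7 and PRMT1 had log2 fold changes of -0.57 and -0.31, and the acetyltransferase CREBBP had one of -0.32. The acetyltransferase EP300 (-0.26) lost its call in 4 alternatives, among them those without control replicate 5 or knockdown replicate 4 or 5 (adjusted p up to 0.0773). These shares stand beside 22.6% of all tested genes that rose and 19.2% that fell. The lists were chosen with earlier results known, and no list was tested as a set.

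**Figure D5:**
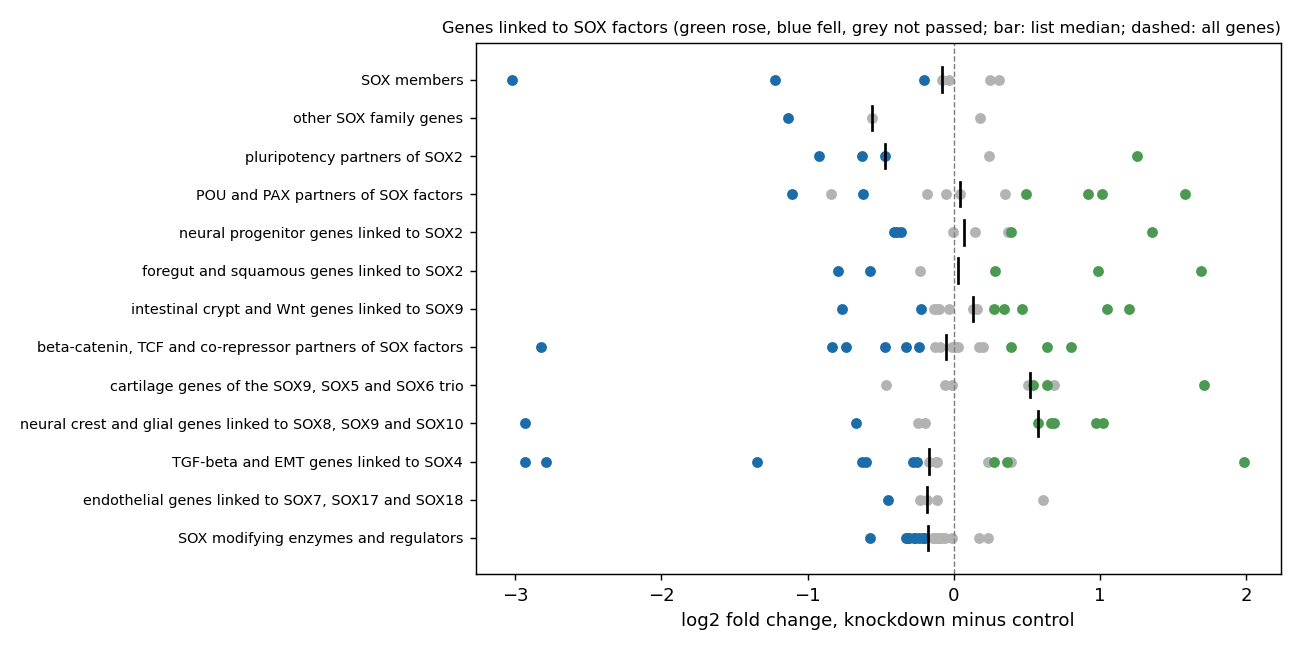
Log2 fold changes (horizontal axis) of the tested genes of each list with at least 3 tested members, green for those that rose, blue for those that fell and grey for those that did not pass, with the list median as a bar and the median of all genes as a dashed line. The enzymes and regulators lie mostly just below 0, the cartilage and neural crest medians lie at 0.52 (0.27 to 0.59 over the alternatives) and 0.57, and most other lists lie on both sides of 0. Of the cartilage genes, COL9A2 and MATN3 were tested only through their knockdown samples.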

How the data were processed

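The table of log2 values was deposited by the authors, one column per sample. Its scale is not stated in the labels and was read from the values as the log2 of RPM plus 1e-04, the floor of every column. Partek and Bowtie are named without versions, with the build hg38, per the submitters' processing notes. The table's positions differ from GRCh38: its last gene end on chromosome 1 is 249214146, past 248937043 in GENCODE 29. Depth was taken from the step between low values, of which 75.6% to 76.7% lay within 0.02 of a whole read, so count models were not run. Symbols at several loci had identical values and were used once.

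Genes averaging 0.688 RPM or more, 15496 in all, were fitted with limma 3.58.1 (R 4.3.3, lmFit, eBayes with trend) on the deposited values, knockdown against control, with p-values (two-sided) adjusted by Benjamini-Hochberg over these genes and a threshold of 0.05. "Rose" and "fell" are used for genes past it. The fit was tested on simulated data. Promoters came from RefSeq (GRCh38.p14). The SOX genes and lists were chosen with earlier results of these data known. The naming rule took every SOX gene, up to 5 members of each list by smallest p, not all of which are printed, the 3 most abundant cell type markers of a list, and 5 genes most like SOX2. VIL1, EPCAM, HNF4A, KRT20, LGALS4, GPA33, COL2A1, POU5F1, MRPL47, DNAJC19, FXR1 and NHLRC1, and the genes that overlap SOX genes, were chosen with their values known. Of the lists, those for SOX locus transcripts and microRNA hosts had no tested member. Some items are not reported here.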

Additional observations from a re-analysis of the deposited data

How the results depend on the processing

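Alternatives were an offset of 0.1 or 1 RPM, no filter or a stricter one, median of ratios, quantile or listed-gene scaling, other variance priors, leaving out each sample, and a replicate block. SOX2 and SOX4 fell under all 16. SOX members that fell numbered 2 to 4. The SOX12 log2 fold change reversed to 0.016 under quantile normalization. It ranged from -0.158 to 0.0499 with 1 sample left out, reversing without control replicate 4, control replicate 5 or knockdown replicate 4. The SOX15 log2 fold change reversed to -0.0658 under quantile normalization and ranged from -0.0514 to 0.397 with 1 sample left out, reversing without knockdown replicate 5. The cause was not tested. SOX9 also lost its call with no filter, quantile normalization or no variance trend (adjusted p = 0.0980, 0.0674 and 0.171). SOX14 lost its call with no filter and no variance trend (adjusted p = 0.0545 and 0.0588), and SOX1 gained one under quantile normalization (adjusted p = 0.0219). Without a filter, SOX5 had a log2 fold change of -9.37, set by the offset. SOX8 was not tested without knockdown replicate 4, as it fell under the filter.

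Deviations from the group means correlated at -0.05, -0.06 and -0.13 between samples of the same number, which is no sign that the numbers pair samples. With the replicate block 5481 genes changed, against 6480. SOX2 kept a log2 fold change of -3.02 (SE 0.208) and its call, and SOX9 did not pass (limma adjusted p = 0.121). The SE and p of this fit rest on spread pooled over genes, so they do not measure the spread of SOX2 alone. Depth limits SOX5, SOX6, SOX7 and SOX8, which have at most 26 reads in any sample.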
